A study of Mus musculus with 6 samples.

Results

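The genes described here are 45 non-collagen matrix and fibroblast genes. Their products build, crosslink or signal from the extracellular matrix, or mark the fibroblasts that secrete it. They are a given list of symbols. For each, the probe set whose annotation gives that 1 symbol alone was used, and the one with the highest mean over the 6 arrays where there were several. Such a probe set was found for 42 members out of 19938 genes measured in this way, and 0 members had a second one. Fbn1, Loxl2 and Spp1 were not analysed here, Loxl2 because its probe set also carries another gene's symbol.

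The hearts came from untreated mice aged 12 months, 3 with a knockout of Cenpf and 3 wild-type, with 1 Affymetrix mouse gene array for each heart. The protein made by Cenpf, centromere protein F, binds microtubules and sits at the kinetochore when cells divide. The comparison asks how knockout hearts differ from wild-type hearts. The labels give the 3 hearts of a group as biological replicates. Strain, sex, the deleted part of the gene and the cells that lack it are not given here. Cenpf itself read 6.35, 6.10 and 6.67 in knockout hearts, against 8.75, 8.54 and 8.04 in wild-type hearts, where the background level, set from olfactory and vomeronasal receptor genes, was 6.35. It fell by 2.07 (SE 0.21, limma, adjusted p = 0.0286). Of its knockout values 2 of 3 were below background, and a probe outside the deleted part would check nothing. Over the probes with 1 gene symbol, knockout replicate 1 and wild-type replicate 3 had limma array weights of 0.53 and 0.54. The other 4 arrays had weights above 1. All 10 ventricular cardiomyocyte markers examined lay above background, as the label heart requires. The array medians lay between 6.92 and 6.97, and 6 of the 19938 genes, or 0.0301%, passed an adjusted p of 0.05.

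Cardiac fibroblasts secrete most of the matrix between muscle cells. Fibronectin and the matricellular proteins, which signal to cells more than they bear load, are laid down in injured myocardium. Small leucine-rich proteoglycans coat and space collagen fibrils. Elastin, fibrillins, fibulins and the latent TGF-beta binding proteins form elastic fibres, and some of these hold TGF-beta in store. Lysyl oxidases crosslink collagen and elastin. Resident fibroblasts are recognised by genes such as Pdgfra and Tcf21, and activated ones by genes such as Postn.

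No member passed the adjusted threshold, and the differences ran in both directions. With limma, 0 of 42 members had an adjusted p under 0.05, and the smallest was 0.368 for Fbln5. At an unadjusted p under 0.05 there were 8 members, all higher in knockout hearts, namely Fbln5, Thbs2, Tnxb, Thbs1, Ltbp4, Ccn2, Ltbp2 and Sparcl1. These 8 are 19.05% of the members, where 4.67% of all genes were higher and 5.02% lower at that threshold. The knockout values lay wholly above the wild-type values for 7 members (16.67%), the same genes without Ccn2, and wholly below for 0, while over all genes these shares were 7.5% and 7.33%. A positive difference was seen in 27 of 42 members, against 48.4% of all genes. The median difference, knockout minus wild type, was 0.10 on the log2 scale for the members and -0.006 for all genes. These shares describe the list and carry no test of it. In a sample of bulk tissue, fewer cells of a type and less RNA per cell cannot be told apart.

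The count of positive differences and the median difference changed with the heart left out. Without wild-type replicates 1, 2 and 3 in turn, 24, 36 and 24 members were positive, with medians of 0.014, 0.19 and 0.094. Without knockout replicates 2 and 3 in turn, 34 and 30 were positive, with medians of 0.25 and 0.18. Of all genes, 47.5% to 50.0% were positive in these comparisons. Knockout replicate 1 had the highest of the 6 values for 31 of 42 members (73.8%), against 19.2% of all genes. Without it, 19 of 42 members (45.2%) had a positive difference, against 47.5% of all genes, and the median difference was -0.06. The groups were apart in that comparison for 7 members higher and 8 lower in knockout hearts, where 30.6% of all genes had groups apart. Then 7 members had an unadjusted p under 0.05, of which 2 were higher (Fbln5 and Thbs2) and 5 lower (Lum, Mfap4, Ogn, Cthrc1 and Postn), where 10.9% of all genes reached that threshold. Without wild-type replicate 3 there were 13 such members, 8 higher and 5 lower (Fn1, Sparc, Ogn, Thbs4 and Eln), where 15.6% of all genes reached it. In that comparison 0 members had an adjusted p under 0.05 with limma, against 1.34% of all genes. Without wild-type replicate 1 the number at an unadjusted p under 0.05 was 1 (6.72% of all genes), and without wild-type replicate 2 it was 3 (6.03% of all genes). Without knockout replicate 2 it was 11 (7.14% of all genes) and without knockout replicate 3 it was 7 (6.54% of all genes), and in these 4 comparisons all such members were higher. Leaving out 1 heart moved the difference by over 1.5 times for 38 of 42 members, the 4 exceptions being Fbln5, Sparcl1, Thbs2 and Tnxb.

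**Figure D1:**
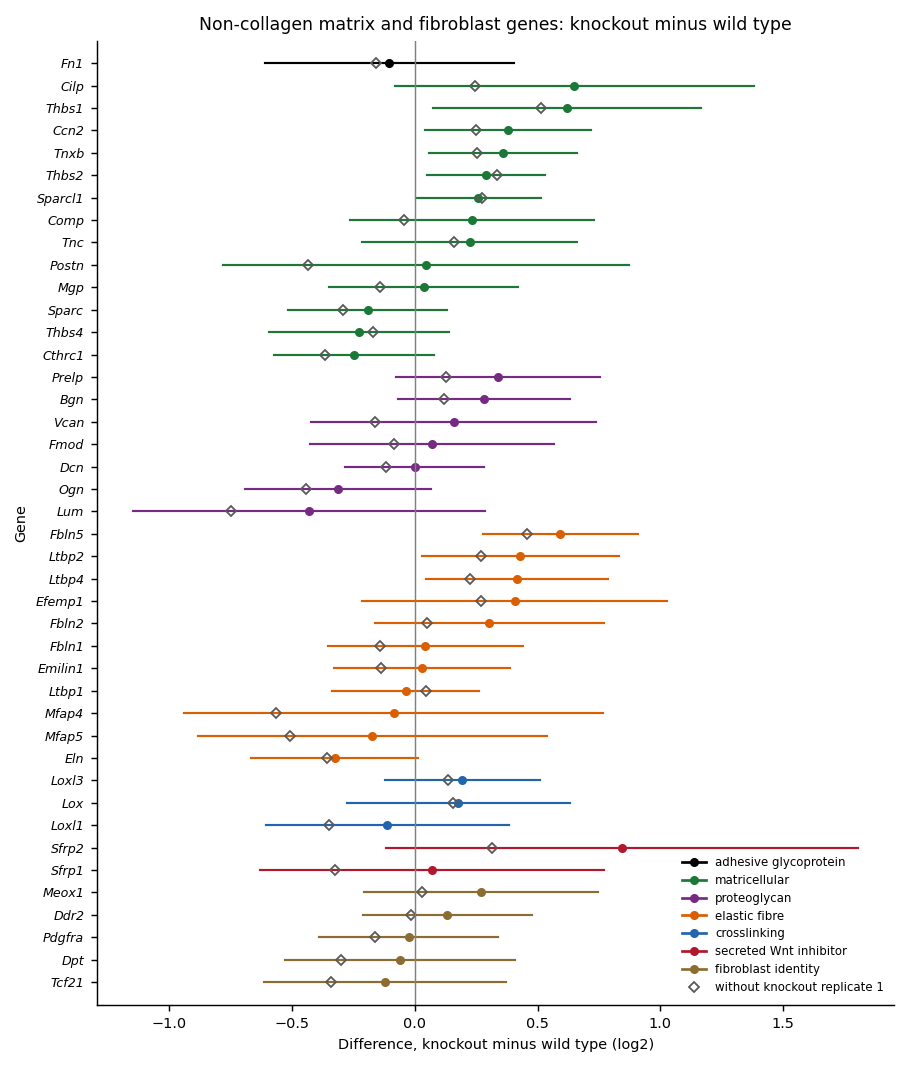
Difference of each of the 42 members, knockout minus wild-type hearts, in log2 units along the horizontal axis, with genes down the page grouped by role and coloured accordingly. Filled points are the fitted differences of 3 knockout against 3 wild-type hearts with 95% intervals, and open diamonds are the differences without knockout replicate 1. The intervals of 8 members exclude 0, and most diamonds lie left of their points.

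Elastic fibre genes held the member with the smallest p. Fbln5, which encodes fibulin-5, a protein that elastic fibre assembly requires, read 9.68, 9.23 and 9.31 in knockout hearts, against 8.74, 8.76 and 8.96 in wild-type hearts. Every knockout heart exceeded every wild-type heart, with knockout replicate 1 the highest. The fitted difference was 0.59 with a standard error of 0.14 (95% interval 0.28 to 0.91, a 1.51-fold level, adjusted p = 0.368). It kept its sign and stayed between 0.46 and 0.68 when any 1 heart was left out.

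Of the 3 listed genes of the latent TGF-beta binding protein family, 2 read higher. Ltbp4 read 11.41, 10.84 and 10.83 in knockout hearts, against 10.55, 10.62 and 10.66 in wild-type hearts. Here the groups were apart, and knockout replicate 1 stood well above the other knockout hearts, the lower of which exceeded the highest wild-type value by 0.17. The difference was 0.42 (SE 0.16, adjusted p = 0.474), and 0.22 without knockout replicate 1. Ltbp2 had levels of 8.02, 7.50 and 7.59 in knockout hearts, against 6.99, 7.33 and 7.50 in wild-type hearts. The lowest knockout value and wild-type replicate 3 were almost equal, so the separation of the groups was marginal. Its difference was 0.43 (SE 0.17, adjusted p = 0.486), or 0.27 without knockout replicate 1. Ltbp1 differed by -0.037 (95% interval -0.34 to 0.26), with overlapping groups.

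Eln, the gene of elastin itself, lay on the other side. Its values were 7.95, 7.80 and 7.92 in knockout hearts, against 8.46, 8.29 and 7.89 in wild-type hearts. The knockout hearts were close together and below wild-type replicates 1 and 2, while wild-type replicate 3 fell among them. The difference was -0.33 with a standard error of 0.15 (adjusted p = 0.519), and it ran from -0.49 without wild-type replicate 3 to -0.20 without wild-type replicate 1. The 6 smooth muscle markers, from another cell type that makes elastin, were all above background and averaged 8.40, 8.26 and 8.30 in knockout hearts, against 8.79, 8.52 and 8.32 in wild-type hearts. That gap rested on Acta2, singled out after its values were seen, with a difference of -1.28 (SE 0.44, limma, adjusted p = 0.455). Acta2 read 11.07, 10.66 and 11.20 in knockout hearts, against 12.96, 12.76 and 11.07 in wild-type hearts. Its groups overlapped through wild-type replicate 3. Without Acta2 the other 5 averaged 7.87, 7.78 and 7.73 in knockout hearts, against 7.95, 7.68 and 7.77 in wild-type hearts, with differences of -0.21 to 0.32. Eln thus read lower where Fbln5, Ltbp2 and Ltbp4 read higher, and none of the 4 passed the adjusted threshold.

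The remaining elastic fibre genes had overlapping groups. Efemp1, or fibulin-3, read 10.16, 9.64 and 9.86 in knockout hearts, against 8.97, 9.36 and 10.11 in wild-type hearts, and its spread within the wild-type group (SD 0.58, n = 3) exceeded the difference of 0.41. That difference ran from 0.15 without wild-type replicate 1 to 0.72 without wild-type replicate 3. Fbln2, another fibulin, differed by 0.30, or 0.05 without knockout replicate 1 and 0.47 without knockout replicate 2. Fbln1 differed by 0.042, and Emilin1, an elastin-associated glycoprotein, by 0.031. Mfap4 and Mfap5, which encode microfibril-associated proteins, differed by -0.085 and -0.17. For both of these, wild-type replicate 3 was the lowest wild-type heart, and knockout replicate 1 exceeded the mean of the other knockout hearts by 1.44 and 0.999. Without knockout replicate 1 their differences were -0.56 and -0.51. Across the 11 elastic fibre genes measured, 7 had positive and 4 negative differences, with a median of 0.04.

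The upstream sequence is shown for those of the 8 members at an unadjusted p under 0.05 that the RefSeq promoter table for GRCm38.p6 holds, to put the letters next to the genes whose groups separated. The table held 27 of the 45 listed members and 5 of these 8. Each run is the 250 bases before the most upstream annotated start, read 5′ to 3′ on the gene's strand. The Fbln5 run lies at chr12:101819120-101819369 on the minus strand, Ltbp4 at chr7:27337613-27337862 on the minus strand and Ltbp2 at chr12:84876492-84876741 on the minus strand. Thbs2 lies at chr17:14694263-14694512 on the minus strand and Tnxb at chr17:34670285-34670534 on the plus strand. Capitals mark GGGCGG, the GC box, TATAAA, the TATA box, and CAGACA, which contains the CAGA core of Smad binding sites, each searched on both strands, and no marked matches overlap.
Fbln5: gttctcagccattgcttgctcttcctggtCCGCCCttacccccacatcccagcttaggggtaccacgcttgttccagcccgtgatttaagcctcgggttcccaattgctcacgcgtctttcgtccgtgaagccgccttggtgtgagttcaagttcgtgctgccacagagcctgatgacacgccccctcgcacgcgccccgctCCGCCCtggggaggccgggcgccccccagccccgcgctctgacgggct
Ltbp4: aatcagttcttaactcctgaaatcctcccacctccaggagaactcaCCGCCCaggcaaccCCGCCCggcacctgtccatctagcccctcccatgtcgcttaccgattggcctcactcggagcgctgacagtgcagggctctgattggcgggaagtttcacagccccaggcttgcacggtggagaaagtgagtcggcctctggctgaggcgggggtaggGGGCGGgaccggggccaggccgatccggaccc
Ltbp2: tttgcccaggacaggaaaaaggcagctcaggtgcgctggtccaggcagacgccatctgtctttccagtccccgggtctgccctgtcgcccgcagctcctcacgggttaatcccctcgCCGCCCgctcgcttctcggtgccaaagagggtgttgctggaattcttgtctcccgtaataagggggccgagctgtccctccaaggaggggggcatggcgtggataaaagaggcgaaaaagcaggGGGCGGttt
Thbs2: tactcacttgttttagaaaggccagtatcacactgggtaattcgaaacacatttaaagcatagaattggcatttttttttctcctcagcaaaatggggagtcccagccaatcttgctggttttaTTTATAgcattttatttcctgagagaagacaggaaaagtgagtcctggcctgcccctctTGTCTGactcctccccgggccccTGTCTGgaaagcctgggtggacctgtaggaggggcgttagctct
Tnxb: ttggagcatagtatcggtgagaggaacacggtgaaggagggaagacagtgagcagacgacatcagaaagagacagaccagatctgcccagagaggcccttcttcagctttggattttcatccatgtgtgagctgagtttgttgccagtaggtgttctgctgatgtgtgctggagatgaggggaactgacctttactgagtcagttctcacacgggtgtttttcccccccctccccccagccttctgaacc

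The 3 elastic fibre genes carried GC boxes, with 2 in Fbln5, 3 in Ltbp4 and 2 in Ltbp2, and the other two runs carried 0. A GC box was present in 33.0% of the 27025 promoters of this length and in 10 of the 27 members found (37.0%). CAGACA occurred in 1 of the 5, Thbs2, which held 2 copies, and in 7 of the 27 members found (25.9%) and 17.1% of all promoters. TATAAA occurred in 1 of the 5, again Thbs2, and in 5 of the 27 members found (18.5%) and 13.0% of all. A match describes the letters in the window and nothing about a factor.

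The group called matricellular here also takes in Comp, Tnxb, Cilp, Cthrc1 and Mgp. Of its 13 genes measured, 10 had positive differences, Tnc near background included, where 48.4% of all genes did. Their median was 0.23, or 0.16 without knockout replicate 1. An unadjusted p under 0.05 was reached by 5, all higher, where 4.67% of all genes were higher at that threshold. Without knockout replicate 1, Thbs2 alone of these 5 reached it. Thbs1 encodes thrombospondin-1, which binds cells and can activate latent TGF-beta. It read 8.97, 8.69 and 8.62 in knockout hearts, against 7.58, 8.23 and 8.61 in wild-type hearts. Wild-type replicate 3 lay just under the lowest knockout heart, so the groups were apart by a narrow margin, and the wild-type hearts spread widely (SD 0.52, n = 3). The difference was 0.62 (SE 0.24, 1.54-fold, adjusted p = 0.473), and 0.34 without wild-type replicate 1. Thbs2, a related thrombospondin that limits vessel growth, read 9.44, 9.47 and 9.66 in knockout hearts, against 9.13, 9.28 and 9.29 in wild-type hearts. Here the groups were apart and knockout replicate 1 was the lowest of the knockout hearts. Its difference was 0.29 (SE 0.10, adjusted p = 0.459), and 0.33 without knockout replicate 1.

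Thbs4, a thrombospondin known to be induced in the loaded heart, did not share that direction. Its levels were 7.97, 8.18 and 8.09 in knockout hearts, against 8.62, 8.32 and 7.98 in wild-type hearts, and the groups overlapped through wild-type replicate 3. The difference was -0.23 (95% interval -0.59 to 0.14, adjusted p = 0.657), and ran from -0.39 without wild-type replicate 3 to -0.071 without wild-type replicate 1. Comp, the thrombospondin of cartilage and tendon, read 7.84, 7.09 and 6.92 in knockout hearts, against 6.99, 7.09 and 7.07 in wild-type hearts. Only knockout replicate 1 stood out, and without it the difference of 0.23 became -0.045.

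Tnxb, which encodes tenascin-X, a protein of collagen-rich connective tissue, read 9.87, 9.49 and 9.61 in knockout hearts, against 9.16, 9.29 and 9.45 in wild-type hearts. All knockout hearts lay above all wild-type hearts, with a gap of 0.037 between the nearest. It differed by 0.36 (SE 0.13, adjusted p = 0.459). Tnc, the injury-induced tenascin-C, was near background, at 6.57, 6.43 and 6.33 in knockout hearts, against 6.44, 6.47 and 5.75 in wild-type hearts. Of these values 1 in each group was below 6.35, and its mean over all hearts was the only one among the members below that level, so no change could be resolved.

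Ccn2, also known as connective tissue growth factor and a target of TGF-beta and YAP, read 11.03, 10.61 and 10.67 in knockout hearts, against 10.29, 10.28 and 10.61 in wild-type hearts. Wild-type replicate 3 equalled knockout replicate 2 to 2 decimals, so the groups overlapped. The difference was 0.38 (SE 0.15, adjusted p = 0.474), and 0.25 without knockout replicate 1. Sparcl1, an adhesion-modulating relative of Sparc, read 12.24, 12.27 and 12.31 in knockout hearts, against 11.94, 11.90 and 12.21 in wild-type hearts, with the 3 knockout hearts close together and the groups apart by 0.032. It differed by 0.26 (SE 0.11, adjusted p = 0.5). Sparc, a collagen-binding protein, read 12.92, 12.61 and 12.62 in knockout hearts, against 13.01, 13.06 and 12.66 in wild-type hearts, with overlapping groups and a difference of -0.19 that ran from -0.32 without wild-type replicate 3 to -0.12 without wild-type replicate 2.

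**Figure D2:**
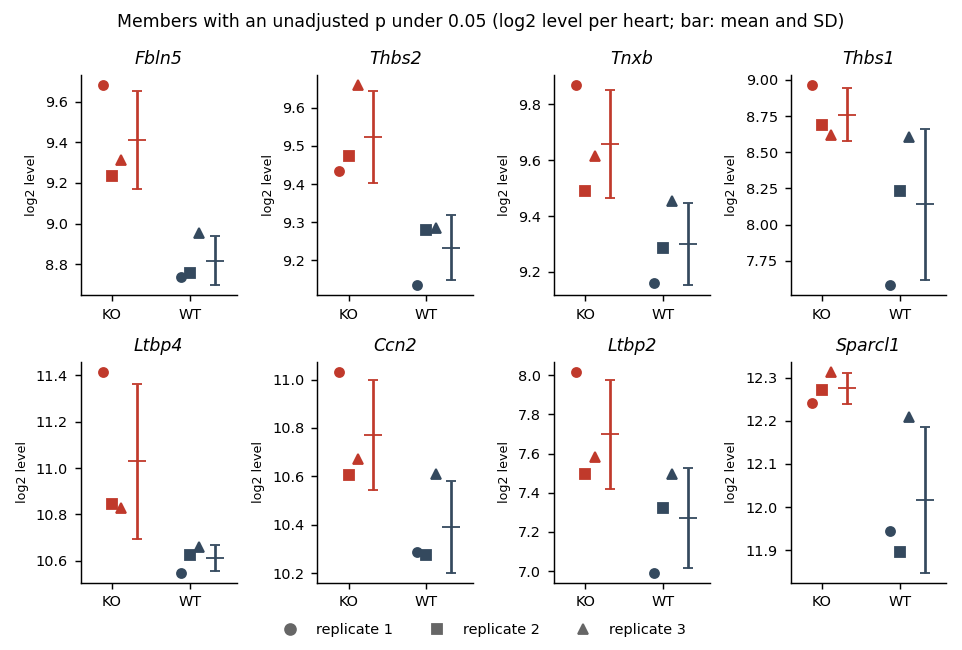
Log2 level in each heart of the 8 members with an unadjusted p under 0.05, knockout (KO, red) left and wild-type (WT, dark) right, with symbols for the replicate number and bars for mean and SD (n = 3); each panel has its own vertical axis. The groups are apart in 7 panels, narrowly so for Ltbp2, Thbs1, Sparcl1 and Tnxb, and overlap for Ccn2, where wild-type replicate 3 is the highest wild-type heart.

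Of 3 genes known from activated fibroblasts, Postn and Cilp had a single high knockout heart and Cthrc1 did not. Postn, the gene of periostin, read 11.28, 9.71 and 9.97 in knockout hearts, against 10.14, 10.55 and 10.14 in wild-type hearts. Knockout replicate 1 was far above the rest and the other knockout hearts were the lowest of all. The mean difference of 0.046 (95% interval -0.78 to 0.87) became -0.43 without that heart. Cilp, a matrix protein that restrains TGF-beta signalling, read 8.16, 6.95 and 6.92 in knockout hearts, against 6.53, 6.52 and 7.03 in wild-type hearts, with a difference of 0.65 (adjusted p = 0.54), or 0.24 without knockout replicate 1. Cthrc1, a secreted protein of activated fibroblasts, read 7.24, 7.05 and 6.72 in knockout hearts, against 7.30, 7.13 and 7.31 in wild-type hearts and differed by -0.25 (adjusted p = 0.589), or -0.11 without knockout replicate 3. Its groups overlapped, and its lowest hearts were knockout replicates 2 and 3. Mgp, an inhibitor of calcification, differed by 0.036, with levels of 10.58, 9.91 and 10.17 in knockout hearts, against 10.11, 10.11 and 10.33 in wild-type hearts.

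Fn1, the fibronectin gene, gave 9.80, 9.73 and 9.53 in knockout hearts, against 9.86, 10.24 and 9.28 in wild-type hearts. The wild-type hearts spanned the knockout range at both ends. Its difference was -0.10 (95% interval -0.61 to 0.40, adjusted p = 0.902).

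Proteoglycan genes split by member, with 4 of 7 differences positive and 3 negative, a median of 0.07 and 0 members at an unadjusted p under 0.05. Bgn, the gene of biglycan, read 12.70, 12.23 and 12.19 in knockout hearts, against 11.94, 12.11 and 12.22 in wild-type hearts, a difference of 0.28 (adjusted p = 0.57) that was 0.12 without knockout replicate 1. Dcn, the gene of decorin, which binds collagen and TGF-beta, read 13.69, 13.29 and 13.39 in knockout hearts, against 13.46, 13.52 and 13.40 in wild-type hearts, and its difference was -0.0005 with a 95% interval of -0.28 to 0.28. Lum, the gene of lumican, read 11.16, 10.09 and 10.32 in knockout hearts, against 11.07, 11.38 and 10.41 in wild-type hearts. For Lum the hearts formed a high set of knockout replicate 1 with wild-type replicates 1 and 2, and a low set of the other three, which crosses the genotypes. The difference of -0.43 (adjusted p = 0.663) became -0.75 without knockout replicate 1 and -0.70 when wild-type replicate 3 was left out. It became -0.22 without knockout replicate 2, and -0.22 when wild-type replicate 2 was left out. Ogn, osteoglycin, differed by -0.31, or -0.21 without knockout replicate 2 and -0.20 when wild-type replicate 2 was left out. Prelp, an anchor of basement membrane to connective tissue, differed by 0.34, or 0.13 without knockout replicate 1. Vcan, the gene of the large proteoglycan versican, differed by 0.16 and Fmod, fibromodulin, by 0.071, with knockout replicate 2 of Fmod below background. Knockout replicate 1 was above both other knockout hearts in all 7.

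Of the crosslinking enzymes, Lox, the lysyl oxidase gene, read 7.01, 7.18 and 6.71 in knockout hearts, against 6.42, 7.17 and 6.77 in wild-type hearts, a difference of 0.18 (95% interval -0.28 to 0.63). Loxl1, an oxidase of elastic fibres, differed by -0.11 and Loxl3 by 0.19, or 0.062 without wild-type replicate 1. The groups of all 3 overlapped. The secreted Wnt antagonists both had their highest value in knockout replicate 1. Sfrp2 read 9.27, 7.58 and 7.77 in knockout hearts, against 7.70, 7.52 and 6.88 in wild-type hearts. The 0.84 difference (95% interval -0.12 to 1.81, adjusted p = 0.542), the largest positive one among the members, became 0.31 without that heart. For Sfrp1 the difference was 0.069, and -0.32 without it.

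In none of the 5 fibroblast identity genes were the groups apart, and 2 of the 5 differences were positive. Pdgfra, the receptor for platelet-derived growth factor on fibroblasts, read 10.28, 9.81 and 9.91 in knockout hearts, against 10.08, 10.22 and 9.78 in wild-type hearts. Tcf21, a transcription factor of the fibroblast lineage, read 9.14, 8.42 and 8.54 in knockout hearts, against 8.85, 9.10 and 8.50 in wild-type hearts. In both, knockout replicate 1 was the highest heart, and wild-type replicate 3 lay with the other two knockout hearts. Their differences were -0.024 (95% interval -0.39 to 0.34) and -0.12 (95% interval -0.61 to 0.37). Ddr2, a collagen receptor, read 9.78, 9.28 and 9.40 in knockout hearts, against 9.28, 9.53 and 9.24 in wild-type hearts, a difference of 0.13. Dpt, the gene of dermatopontin, read 12.09, 11.30 and 11.42 in knockout hearts, against 11.65, 11.85 and 11.49 in wild-type hearts, a difference of -0.059. Meox1, a homeobox factor of activated fibroblasts, read 8.77, 7.86 and 8.21 in knockout hearts, against 7.89, 8.02 and 8.11 in wild-type hearts, a difference of 0.27 that was 0.028 without knockout replicate 1 and 0.48 without knockout replicate 2. The 95% intervals were -0.21 to 0.48 for Ddr2, -0.53 to 0.41 for Dpt and -0.21 to 0.75 for Meox1, so a difference as large as that of Ltbp4 lay within those of Ddr2 and Meox1.

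**Figure D3:**
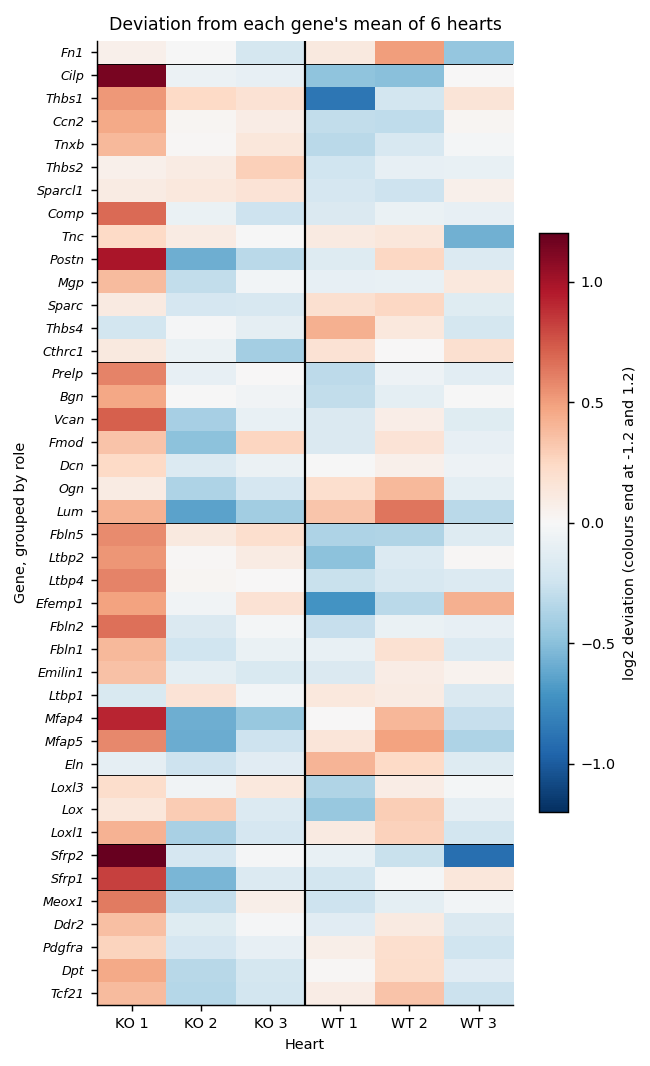
Deviation of each member in each heart from that gene's mean over the 6 hearts (log2, red above, blue below), with genes in rows grouped by role and knockout (KO) hearts left of wild-type (WT) hearts. The column of knockout replicate 1 is red for most genes, while Lum, Mfap5, Tcf21 and Loxl1 are also red in wild-type replicate 2 and blue in wild-type replicate 3.

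The spread inside the knockout group was wide for these genes. The median SD over members was 0.28 in knockout and 0.19 in wild-type hearts, while over all genes it was 0.13 and 0.14 (n = 3 hearts each). The knockout SD exceeded the wild-type SD for 31 of 42 members. Knockout replicate 1 was the highest knockout heart for 37 of 42 members (88.1%), against 38.5% of all genes, and exceeded the mean of the other two by a median of 0.47, or 0.007 over all genes. For 5 members, Sfrp2, Mfap4, Postn, Cilp and Sfrp1, that gap was 1 or more. These 5 were picked after their values were seen. Wild-type replicate 3 was the lowest wild-type heart for 19 members (45.2%), against 38.6% of all genes. It was the highest for 15 (35.7%), including Fbln5, Thbs1, Efemp1, Tnxb and Ltbp2, against 34.5% of all genes.

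**Figure D4:**
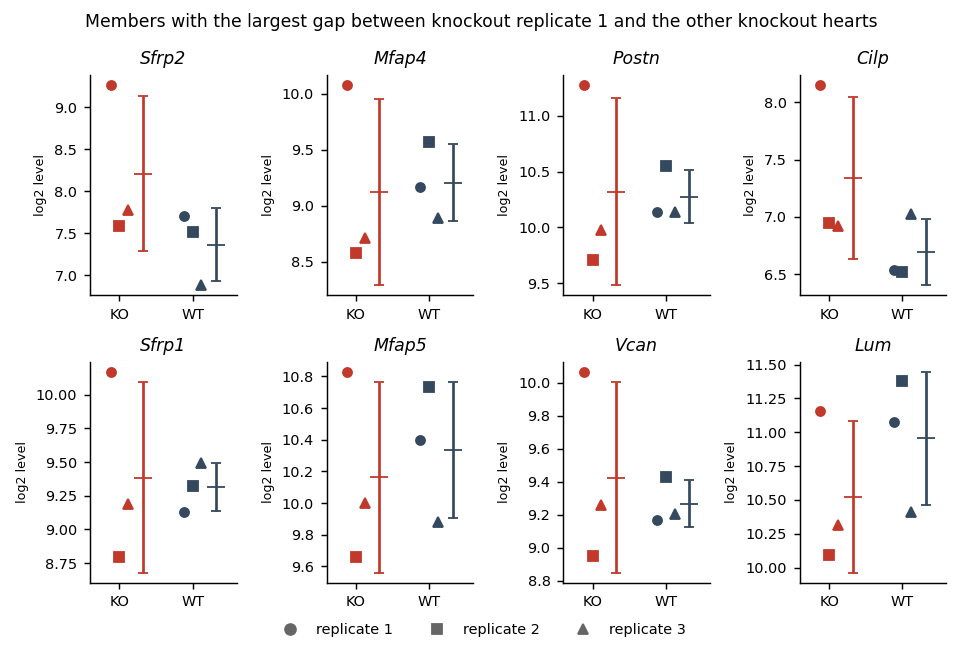
Log2 level in each heart of the 8 members with the largest gap between knockout replicate 1 and the mean of the other two knockout hearts, knockout (KO, red) left and wild-type (WT, dark) right, with bars for mean and SD (n = 3) and a separate vertical axis in each panel. In each panel the red circle, knockout replicate 1, is far above the other red symbols, which lie below all wild-type symbols for Mfap4, Postn and Lum.

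The means of the fibroblast and macrophage markers were also highest in knockout replicate 1. The 12 fibroblast markers that are not members, among them Col1a1, Pdgfrl and Cd248, were all above background. Their mean log2 level was 9.43, 8.77 and 8.90 in knockout replicates 1, 2 and 3, against 9.02, 9.18 and 8.81 in the wild-type ones. The 9 macrophage markers, also all above background, averaged 10.25, 9.46 and 9.66 in the knockout hearts, against 9.49, 9.81 and 9.97 in the wild-type hearts. Knockout replicate 1 held the highest of the 6 values for 7 of the 12 fibroblast and 8 of the 9 macrophage markers. The mean of the 10 ventricular cardiomyocyte markers was lowest there, at 13.32, with 13.54 and 13.45 in the other knockout hearts, against 13.34 to 13.45 in wild-type hearts. Of these, 5 were lowest in knockout replicate 1 (Ryr2, Ttn, Myh6, Myl2 and Pln), and Myl3 was highest there. Knockout replicate 1 minus the mean of the other knockout hearts was -0.62 for Ryr2 and -0.58 for Ttn. For the rest it was -0.27 (Myh6) to 0.016 (Tnni3), so the low mean rested mostly on Ryr2 and Ttn. The 6 epicardial markers had means between 6.78 and 7.47 in knockout hearts and 7.14 and 7.18 in wild-type hearts. Of the 6 cartilage markers, Acan, Matn1 and Matn3 were below background. The 7 endothelial markers averaged 10.58 to 10.64 in knockout hearts, against 10.43 to 10.52 in wild-type hearts, and the 5 pericyte markers 10.17 to 10.32, against 10.16 to 10.37. The 5 atrial markers, with Sln and Bmp10 below background, averaged 8.62, 8.33 and 8.33 in knockout hearts, against 8.16, 7.90 and 8.32 in wild-type hearts. Of these, Myl7 differed by 0.53 with the groups apart and Nppa by 0.71, both with wild-type replicate 3 the highest wild-type heart and neither past the adjusted threshold. The 5 endocardial and valve markers, with Hapln1 below background, averaged 7.96, 7.73 and 7.76 in knockout hearts, against 7.94, 8.07 and 7.90 in wild-type hearts. Of their differences 2 were positive and 3 negative. Npr3 (-0.59) and Plvap (-0.41) were lower at an unadjusted p under 0.05 (limma), as were 5.02% of all genes. The 4 adipocyte markers measured, with Adipoq and Lep below background, averaged 6.51, 6.34 and 6.46 in knockout hearts, against 7.05, 6.86 and 6.46 in wild-type hearts. All 4 differences were negative and the groups of Plin1 and Lep were apart, where 7.33% of all genes lay wholly lower. The part of these cell markers in the differences of the members was not tested.

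**Figure D5:**
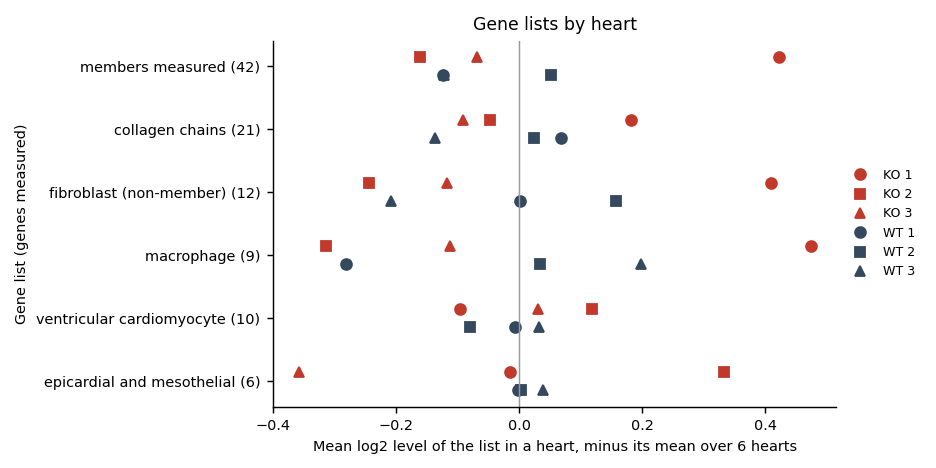
Mean log2 level of a gene list in each heart, minus the list's mean over the 6 hearts, with knockout (KO) hearts in red drawn above wild-type (WT) hearts in dark for each list. Knockout replicate 1 is furthest right for the 42 members, the collagens, the non-member fibroblast markers and the macrophage markers. It is furthest left for ventricular cardiomyocyte markers, mostly through Ryr2 and Ttn. The circle and triangle of wild-type replicates 1 and 3 nearly coincide in the top row.

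The genes around the members in the same pathways gave 1 call. Of 21 proteases and inhibitors of the matrix measured, 1 passed with a higher level, Mmp3, or stromelysin-1. It read 8.11, 7.74 and 8.22 in knockout hearts, against 5.86, 5.93 and 6.18 in wild-type hearts. All wild-type values lay below background, so it rose by at least 1.67 on the log2 scale, at least 3.19-fold (limma, adjusted p = 0.00672). Mmp12, the macrophage elastase next by p, was below background in all 3 knockout hearts and averaged 0.14 above it in wild-type hearts, with adjusted p = 0.379.

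The 3 other pathway lists had 0 members past the adjusted threshold. Of 21 collagen chains, 10 differences were positive and 11 negative, with a median of -0.02. Those with the smallest p were the basement membrane chain Col4a1 with 0.21 and the fibrillar chain Col5a1 with 0.25 (adjusted p = 0.527 for both). Of 31 other matrix glycoproteins and proteoglycans, 19 were positive, and Ccn1 and Svep1 had the smallest p. Ccn1, a relative of Ccn2, read 10.51, 10.72 and 10.57 in knockout hearts, against 10.01, 9.98 and 10.16 in wild-type hearts, with the groups well apart, a difference of 0.55 (SE 0.10, adjusted p = 0.256). Svep1, an integrin-binding matrix protein, differed by 0.94 (SE 0.26, limma, adjusted p = 0.391), with the groups apart. Its highest value was in knockout replicate 1, and the difference was 0.65 without that heart. Of 22 genes of the TGF-beta pathway, 13 were positive with a median of 0.02. Smurf1, a ubiquitin ligase acting on that pathway, differed by 0.34 (adjusted p = 0.423), and the ligand gene Tgfb2 by 0.28 (adjusted p = 0.546).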

How the data were processed

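Transcript levels of 6 hearts were measured on Affymetrix arrays, 1 per heart. The values, deposited as log2 levels, were made by the authors with RMA, which corrects background, normalizes arrays and summarises probes, and Partek 6.6 is also named, per the submitters' processing notes. The settings are not given in the labels. Of 35556 probes, 21789 had 1 gene symbol in the platform annotation, 1621 several and 12146 none here. Symbols were matched by Entrez ID to a RefSeq gene table (GRCm38.p6), which held 21698 of them.

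No further scaling or filter was applied. As background level served the 95th percentile over 1205 probes for olfactory and vomeronasal receptors, taking each probe's mean over the arrays. Knockout and wild-type hearts were compared across all 21789 probes with limma 3.58.1 (lmFit, eBayes) in R 4.3.3, two-sided, with Benjamini-Hochberg adjustment over all of them; shares over all genes use 1 probe per gene. The test was checked on simulated data. The precision is limited by 3 arrays a group.

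The members and lists were chosen with earlier results of these data known. Values per heart are given for members at an unadjusted p under 0.05 or with groups apart, and for a fixed set of injury, abundant matrix and fibroblast genes. A few more (Efemp1, Sfrp2) were chosen after their values were seen. Of each pathway list the 2 genes of smallest p are named. Alternatives were 3 normalizations, a filter on dim probes, limma fitted to all 35556 probes, and probes averaged per gene. Further ones were array weights, limma's trended and robust variance, the replicate block and each heart left out. Added after seeing the data was the comparison with knockout replicate 1 and wild-type replicate 3 left out together. Figures were drawn with matplotlib 3.10.9.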

Additional observations from a re-analysis of the deposited data

How the results depend on the processing

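In the comparison as reported and in each of the 16 alternatives 0 of the members tested had an adjusted p under 0.05, and the smallest adjusted p was 0.0596, for Lum without knockout replicate 1 and wild-type replicate 3, a pair of arrays chosen after seeing the data. Of 671 differences over members and alternatives, 613 kept their sign and 58 turned, in 20 members, and 22 members never turned. The 8 members at an unadjusted p under 0.05 were 13 with array weights (8 higher, 5 lower), where 17.6% of all genes reached that threshold. They were 4 when limma was fitted to all 35556 probes, where 7.21% did. That fit estimated the variance shared between probes anew, which changes the unadjusted p. As reported the share was 9.69%. With hearts left out, singly or as that pair, the count ran from 1 without wild-type replicate 1 to 23 without the pair (10 higher, 13 lower, where 19.7% of all genes reached that threshold). The 7 members with groups apart ran up to 27 without the pair, where 50.9% of all genes had groups apart. The 27 positive differences ran from 17 without the pair to 36 without wild-type replicate 2. The median difference ran from -0.073 to 0.25.

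Dcn turned to 0.021 with array medians subtracted and to 0.041 with cyclic loess. With array weights Postn turned to -0.21, Mgp to -0.0063, Fbln1 to -0.060, Emilin1 to -0.041 and Sfrp1 to -0.064. With hearts left out, differences that turned ranged from -0.50 to 0.35 for Postn, -0.045 to 0.42 for Comp, -0.14 to 0.19 for Mgp, -0.12 to 0.34 for Fmod, -0.19 to 0.40 for Vcan, -0.21 to 0.17 for Fbln1, -0.14 to 0.13 for Emilin1, -0.13 to 0.047 for Ltbp1, -0.32 to 0.36 for Sfrp1, -0.069 to 0.24 for Ddr2, -0.15 to 0.083 for Dcn, -0.72 to 0.19 for Mfap4, -0.74 to 0.079 for Mfap5, -0.49 to 0.054 for Loxl1, -0.29 to 0.072 for Pdgfra, -0.50 to 0.019 for Tcf21, -0.39 to 0.090 for Dpt, -0.0055 to 0.37 for Lox, -0.42 to 0.12 for Fn1 and -0.076 to 0.35 for Tnc. The cause was not tested.

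Deviations of same-numbered hearts correlated by -0.11, -0.16 and -0.003. Hearts of different numbers were not correlated, so these values cannot decide whether the replicate numbers pair the hearts. With the replicate block 7 members had an unadjusted p under 0.05 (8.16% of all genes), the median difference was 0.10 and no adjusted call changed. Counts of groups apart were not computed with other normalizations, array weights or the block. With 3 hearts a group, the half-widths of the 95% intervals ran from 0.24 to 0.96 over members, and Tnc and Fmod had hearts below background.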
